A study of Arabidopsis thaliana with 6 samples.

Results

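The genes described here encode proteins of the cytosolic ribosome of Arabidopsis thaliana, the particle that translates nuclear mRNAs. They are 44 genes chosen by their identity as cytosolic ribosomal proteins, 27 of the large (60S) and 17 of the small (40S) subunit, among the 33557 genes of the deposited table. The rule that chose them uses no measured value, though earlier results of these data were known when they were chosen. All 44 were among the 22892 genes that the authors tested, and all 44 are annotated as structural constituents of the ribosome in the TAIR10.1 annotation. RNA came from seedlings of the accession Landsberg erecta (Ler), either wild type or carrying the phyA-1 allele of the phytochrome A gene, with 3 libraries per genotype. Both genotypes had 4 days of darkness and then 3 hours of far-red light, so every sample was far-red treated and the comparison asks what differs without a working phytochrome A. Only 1 mutant allele was used, and no seedlings kept in darkness were included, so differences present before the light cannot be told apart from a response to it.

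A cytosolic ribosome holds 1 of most ribosomal proteins per particle, and in Arabidopsis each protein is encoded by a small family of gene copies. Transcripts of these genes are abundant in growing tissue. Their promoters are known for the site II element, bound by TCP factors, and for the telo box, an element resembling the telomere repeat. Phytochrome A is the photoreceptor through which dark-grown seedlings perceive far-red light.

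Levels are FPKM (fragments counted relative to transcript length and to all mapped fragments) that the authors pooled over the libraries of a genotype, so no value carries a spread between replicates. A gene was called when the q-value in the authors' deposited table was 0.05 or below. Ratios are log2((FPKM + 1) ratio) of phyA-1 over wild type. Read depth is unknown. PHYA (AT1G09570), the mutated gene, had 16.0 FPKM in the mutant and 167 in wild type. Of 5 marker genes, the shoot genes LHCA1 and RBCS1B fell, from 933 and 683 FPKM in wild type to 119 and 214 in the mutant. The root hair genes EXPA7, EXPA18 and SHV2 ran from 6.31 to 28.3 FPKM in the mutant and from 6.65 to 20.9 in wild type, and EXPA18 was called higher. The short locus AT2G01021 was listed at 898139 FPKM in the mutant and 239694 in wild type. The part of these differences in the results was not tested. In seedling RNA, fewer cells of a type and less RNA per cell cannot be told apart.

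Upstream sequences of 6 members are shown first, because the members share promoter elements across a wide range of levels. They are the 150 bases before the annotated start, from the RefSeq TAIR10.1 genome, each written in the direction of transcription. Capitals mark matches, on either strand, to site II (TGGGCC or TGGGCT) and to the telo box (AAACCCTA). AT5G20290, of the S8 family, is the member with the highest level. SAC52 and RPL10B are copies of the L10 family that differ widely in level, as are P40 and RPSAb of the SA family. RPL16A, of the L11 family, has the second lowest level of all members.
AT5G20290 (chr5:6853107-6853256, minus strand): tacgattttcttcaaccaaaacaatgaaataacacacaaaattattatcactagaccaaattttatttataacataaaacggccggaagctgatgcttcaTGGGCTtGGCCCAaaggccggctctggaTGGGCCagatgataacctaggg
SAC52 (AT1G14320, chr1:4887964-4888113, plus strand): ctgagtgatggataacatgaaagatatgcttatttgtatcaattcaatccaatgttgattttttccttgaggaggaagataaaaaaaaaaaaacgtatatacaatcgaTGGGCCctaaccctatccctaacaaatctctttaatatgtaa
RPL10B (AT1G26910, chr1:9321500-9321649, plus strand): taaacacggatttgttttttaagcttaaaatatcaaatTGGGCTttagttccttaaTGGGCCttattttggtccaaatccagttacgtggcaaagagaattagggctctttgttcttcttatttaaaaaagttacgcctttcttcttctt
RPL16A (AT2G42740, chr2:17791542-17791691, plus strand): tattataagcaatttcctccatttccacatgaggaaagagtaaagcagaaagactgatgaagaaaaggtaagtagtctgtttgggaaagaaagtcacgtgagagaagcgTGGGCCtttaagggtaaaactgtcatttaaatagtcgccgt
P40 (AT1G72370, chr1:27244932-27245081, minus strand): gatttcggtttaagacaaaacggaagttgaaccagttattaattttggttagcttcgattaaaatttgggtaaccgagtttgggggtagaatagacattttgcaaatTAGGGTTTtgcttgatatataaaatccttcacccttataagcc
RPSAb (AT3G04770, chr3:1311130-1311279, minus strand): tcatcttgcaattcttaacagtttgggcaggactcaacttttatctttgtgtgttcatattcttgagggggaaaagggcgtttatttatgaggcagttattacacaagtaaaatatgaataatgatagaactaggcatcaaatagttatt

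Transcript levels of the cytosolic ribosomal protein genes lay close together in the genotypes. None of the 44 members was called by the test in the authors' deposited table, against 17.2% of all tested genes (8.61% higher and 8.54% lower in the mutant). The count was also 0 with a q-value of 0.01, where 11.5% of all tested genes passed, with 0.1, where 21.9% passed, and with Benjamini-Hochberg adjustment of the deposited p-values, where 15.5% passed. Unadjusted p-values in the authors' deposited table reached 0.05 for 0 members and for 25.7% of all tested genes, and the lowest among members was 0.05875. The ratios ran from -0.15 to 0.28, with a median of 0.05, beside 0.05 over all tested genes and 0.11 over the 1936 tested genes with levels like the members'. All 44 lay within 0.3 of 0, as did 69.5% of all tested genes. In linear terms the largest rise from wild type to phyA-1 was 21.4% and the largest fall 9.67%. Ratios were above 0 for 31 members (70.5%), beside 59% of all tested genes and 66.7% of those with levels like the members'. Only 20 members exceeded the median of 0.07 of genes whose FPKM was 5 or more in each genotype. The side of 0 thus depends on this small offset.

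**Figure D1:**
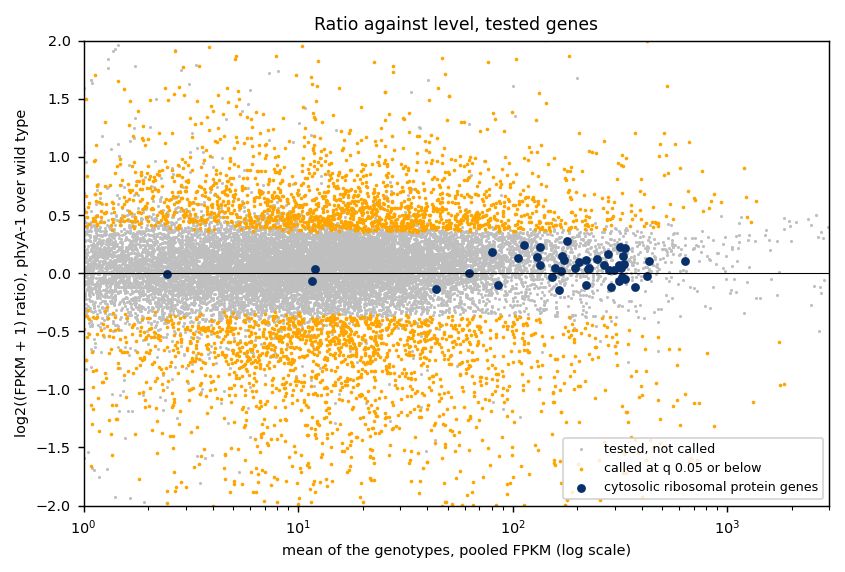
Log2((FPKM + 1) ratio of phyA-1 over wild type) against the mean pooled FPKM of the genotypes (log scale), 1 point per tested gene. Both axes are cropped, which leaves some genes outside. The 44 cytosolic ribosomal protein genes (dark points) stay between -0.15 and 0.28, and the called genes (orange) at their levels lie farther from 0.

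The members are among the higher transcripts of the seedling. Their mean level had a median of 220.0 FPKM, against 8.86 for all tested genes, and 39 of 44 stood above 90% of tested genes. High level does not go with fewer calls in this table. Among the 1936 tested genes with a mean from 67.9 to 333.8 FPKM, the 10th to 90th percentile of the members, 25.7% were called, 13.8% higher and 11.9% lower. The smallest called ratio at these levels was 0.36 in size, which is a difference of 28.4%. Of 330 genes there with a ratio of 0.2 to 0.3 in size, 0 were called by the authors' deposited table. Of 252 genes with 0.3 to 0.4, 48 were called, and of 120 genes with 0.4 to 0.5, 110 were. Members outside that range of levels are not covered by these counts. Differences under 0.36 in size were thus not called at these levels, and the absence of calls does not show that the members were equal in the genotypes. At these levels 41.1% of genes had a ratio larger in size than that of any member.

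**Figure D2:**
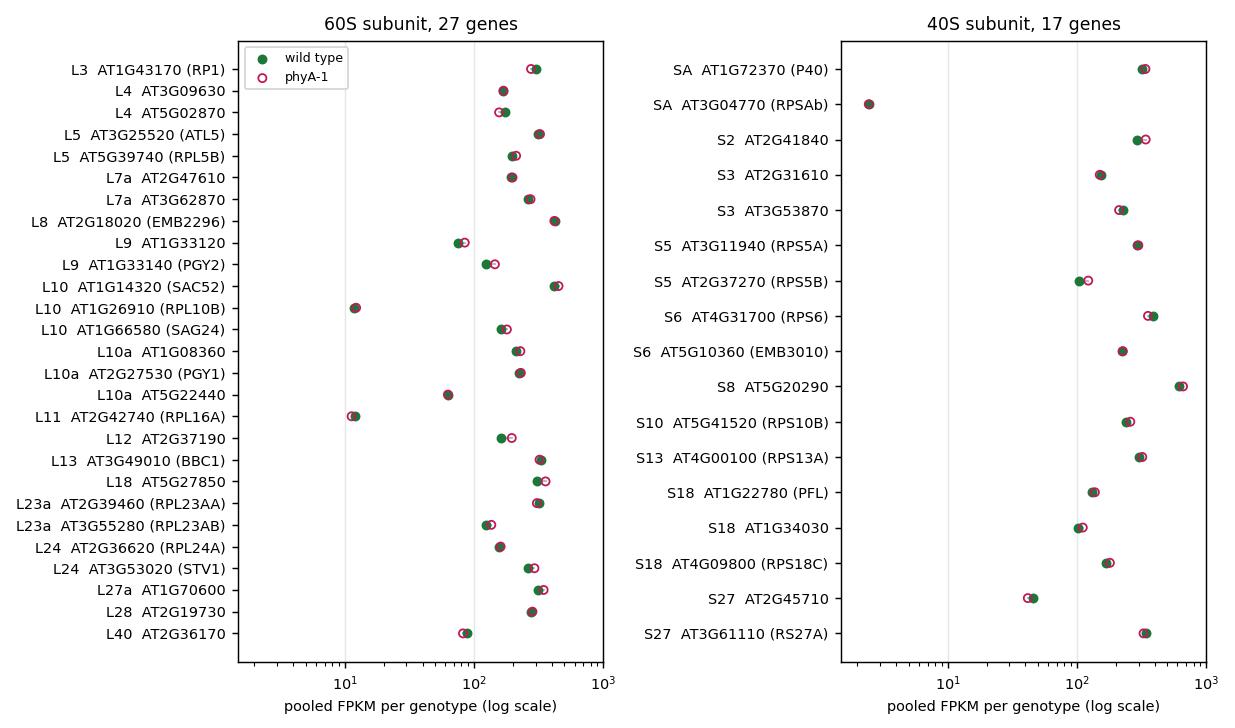
Pooled FPKM (log scale) of each member in wild type (filled green) and phyA-1 (open pink), 27 genes of the 60S and 17 of the 40S subunit, labelled by family, gene ID and symbol. Genotypes nearly coincide for each gene, and most members lie above 100 FPKM, with RPSAb, RPL16A and RPL10B far lower.

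Proteins at the catalytic and tunnel parts of the 60S subunit were encoded by highly expressed genes. RP1 (AT1G43170), encoding L3, which reaches towards the peptidyl transferase centre, had 276 FPKM in the mutant and 301 in wild type (log2 ratio -0.12). EMB2296 (AT2G18020), encoding L8, another protein near that centre, had 419 and 426 FPKM (-0.02). The genes of L4, which lines the exit tunnel, moved in opposite directions by little: AT3G09630 had 169 FPKM in the mutant and 166 in wild type, and AT5G02870 had 156 and 173, the lowest ratio of all members (-0.15, q = 0.539 in the authors' deposited table). RPL23AA (AT2G39460) and RPL23AB (AT3G55280), whose protein sits at the tunnel exit, had 307 and 136 FPKM in the mutant and 321 and 124 in wild type. None of these genes passed the test.

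L5 and L11 bind the 5S rRNA together. ATL5 (AT3G25520) had 324 FPKM in the mutant and 314 in wild type, and RPL5B (AT5G39740) 212 and 198. RPL16A (AT2G42740), an L11 gene, had only 11.3 and 11.9 FPKM. RPL16B (AT4G18730), an L11 copy outside the members, had 136 and 116 FPKM. It made up 92.3% of the sum of this pair in the mutant and 90.7% in wild type. That sum leaves out further copies, AT5G45775 and AT3G58700, both annotated as L5P family proteins. They had 111 and 58.0 FPKM in the mutant and 109 and 46.2 in wild type, and were not called. The L12 gene AT2G37190, whose protein lies at the base of the stalk that receives elongation factors, had 196 FPKM in the mutant and 161 in wild type. That was the highest ratio of all members (0.28) and the one nearest to a call (q = 0.168, from the authors' deposited table).

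The L10 family joins late in 60S maturation and is needed for subunit joining. SAC52 (AT1G14320) had 451 FPKM in the mutant and 419 in wild type, SAG24 (AT1G66580) 180 and 162, and RPL10B (AT1G26910) 12.2 and 11.9. L10a forms the mobile L1 stalk. AT1G08360 had 228 FPKM in the mutant and 211 in wild type, PGY1 (AT2G27530), named for a leaf polarity mutant, 230.4 and 223, and AT5G22440 62.8 and 62.7. Among L10a genes the last thus stood lowest in both genotypes. L24 genes include STV1 (AT3G53020), needed in Arabidopsis for reinitiation after upstream reading frames, with 294 FPKM in the mutant and 262 in wild type, and RPL24A (AT2G36620), with 161 and 156.

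The other 60S members showed the same closeness. The L7a genes AT2G47610 and AT3G62870 had 199 and 274 FPKM in the mutant and 192 and 261 in wild type. AT5G27850 of the L18 family had 358 FPKM in the mutant and 309 in wild type (0.21), and AT1G70600 of L27a had 346 and 312. BBC1 (AT3G49010), encoding L13, had 322 and 328, and AT2G19730 of L28 had 283 and 277. AT2G36170 encodes L40 as a fusion with ubiquitin and had 82.2 and 88.1 FPKM (-0.10). The 60S genes together summed to 5919 FPKM in the mutant and 5670 in wild type.

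In the 40S subunit, S6 is the protein that S6 kinases phosphorylate in response to TOR, the growth-controlling kinase. RPS6 (AT4G31700) had 355 FPKM in the mutant and 386 in wild type (-0.12), and EMB3010 (AT5G10360), the other S6 gene, 227 and 222 (0.03). RPS5A (AT3G11940), known for strong expression in dividing cells, had 299 and 293 FPKM, and RPS5B (AT2G37270) had 122 and 103 (0.24, q = 0.239 in the authors' deposited table). RPS5B had the second highest ratio of all members and was not called. The listed S3 genes, whose protein lies at the mRNA entry, had 150.4 FPKM in the mutant and 154 in wild type for AT2G31610 and 212 and 228 for AT3G53870. AT5G35530, an S3 gene outside the members, had 138 and 128 FPKM (0.10) and was not called.

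PFL (AT1G22780), an S18 gene, is named for the pointed first leaves of its mutant. It had 138 FPKM in the mutant and 131 in wild type, AT1G34030 111 and 101, and RPS18C (AT4G09800), whose locus in the table also covers AT4G09810, 180.1 and 167. RPS13A (AT4G00100) had 321 and 305. All 4 had ratios between 0.07 and 0.13. AT5G20290 of the S8 family, the highest member, had 663 FPKM in the mutant and 617 in wild type, and AT2G41840 of S2 had 341 and 291 (0.23). RPS10B (AT5G41520) had 259 and 238. RS27A (AT3G61110), a zinc-binding S27 protein gene, had 328 and 340.2 FPKM, and the other S27 gene among the members, AT2G45710, 41.7 and 45.8. The 40S genes summed to 4091 and 3947 FPKM, so the sum of 60S over the sum of 40S members was 1.45 in the mutant and 1.44 in wild type. The median ratio was 0.05 for the 27 genes of the 60S and 0.07 for the 17 of the 40S subunit.

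The SA family showed the widest gap between copies. P40 (AT1G72370) had 339 FPKM in the mutant and 322 in wild type, while RPSAb (AT3G04770) had 2.45 and 2.46, the lowest of all members. RPSAb thus supplied 0.717% of the family's FPKM in the mutant and 0.758% in wild type. The coding sequences of these copies, 897 and 999 bases long, are 70.4% identical with gaps counted as differences (703 of 999 aligned columns). That is the lowest of the 20 pairs of copies compared. Wide gaps also occurred in the L10 family, where RPL10B supplied 1.90% in the mutant and 2.00% in wild type. In S27, AT2G45710 supplied 11.3% and 11.9% of the sum of listed copies. Copies outside the members are not counted in these shares.

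Copy shares hardly differed between the genotypes in any of the 14 families with more than 1 listed member. The largest shift was in S5, where RPS5A supplied 71.0% of the FPKM in the mutant and 73.9% in wild type, 2.98 percentage points. Shifts of 2.94 points were found in L4 and in L23a. No error can be given for these shares, since only pooled values were used, so none of the shifts was tested. Summed over listed copies, the 27 families had ratios from -0.12 (L3) to 0.28 (L12).

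**Figure D3:**
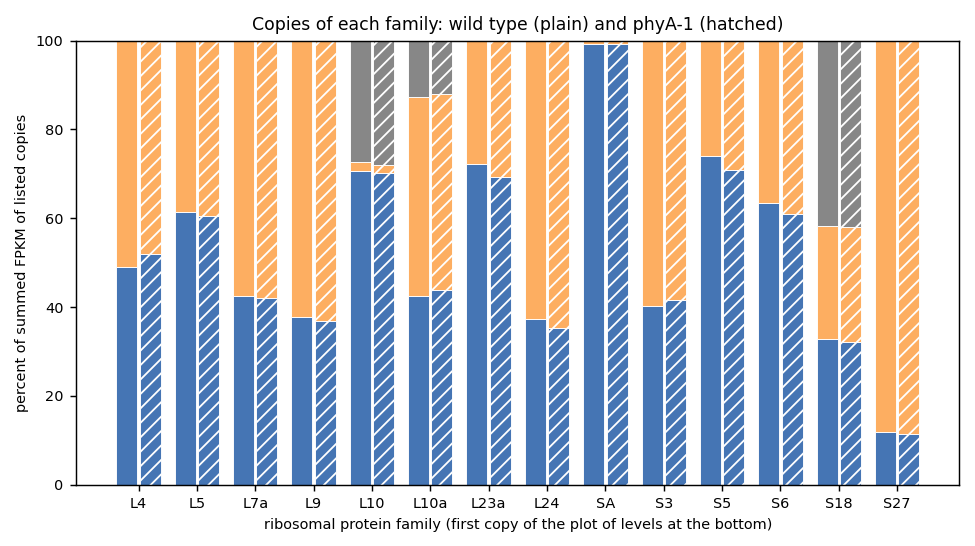
Percent of the summed pooled FPKM of listed copies supplied by each copy, for the 14 families with more than 1 listed member, in wild type (plain bars) and phyA-1 (hatched bars). Colours mark copies, the first copy of the plot of levels at the bottom. Paired bars match within 2.98 percentage points in each family.

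How well reads can be assigned to copies differs between families. Coding identity ran from 70.4% to 99.1% over the 20 pairs, with a median of 87.2%, and the longest stretch without a difference had a median of 38 bases. That stretch reached 98 bases for SAC52 and SAG24 of L10 and 62 for AT1G08360 and PGY1 of L10a. Copy shares rest on how reads were assigned and are uncertain where reads fit more than 1 copy. The L9 genes AT1G33120 and PGY2 (AT1G33140) stand out at 99.1%, with 458 bases in a row identical and 5 differing positions in 585. They had 84.8 and 145 FPKM in the mutant and 74.8 and 124 in wild type, summing to 230.0 and 198.6 FPKM (0.21). Reads over most of their coding sequence fit both, so the single values are uncertain. Untranslated parts were not compared. All 5 differing positions, in capitals, lie in the stretch from base 451 to base 540 of the coding sequence (RefSeq TAIR10.1).
AT1G33120: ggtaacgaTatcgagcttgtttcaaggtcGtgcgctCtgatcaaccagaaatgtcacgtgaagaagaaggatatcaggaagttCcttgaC
PGY2: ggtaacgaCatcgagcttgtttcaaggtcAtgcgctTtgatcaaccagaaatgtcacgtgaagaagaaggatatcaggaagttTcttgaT

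The S18 copies show the more usual case, with differences spread along the whole sequence. They differ at 76 of 459 coding positions, of which 18 (in capitals) fall in the first 90 bases.
PFL: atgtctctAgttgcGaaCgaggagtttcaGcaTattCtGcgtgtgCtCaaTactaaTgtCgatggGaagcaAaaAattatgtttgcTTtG
AT1G34030: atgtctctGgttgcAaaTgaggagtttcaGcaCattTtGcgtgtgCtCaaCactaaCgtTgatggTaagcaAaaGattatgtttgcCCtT
RPS18C: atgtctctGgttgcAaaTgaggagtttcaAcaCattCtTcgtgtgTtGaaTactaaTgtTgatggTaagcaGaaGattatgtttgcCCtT

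The promoter elements shown above were common among the members. In the window from 250 bases before to 50 after the annotated start, both strands searched, 34 of 44 members held site II (77.3%), against 21.7% of 27443 protein-coding genes and 29.9% of genes at the members' levels. The telo box was found in 23 of 44 (52.3%), against 6.22% of all. Its share depends on the search, with 13.6% of members and 4.49% of all genes when only the bases before the start were read, and 25% and 3.68% when only the forward strand was. Both elements together occurred in 18 members (40.9%) and in 2.20% of all genes. The G-box CACGTG, a sequence bound by light-signalling bZIP and bHLH factors, was in 2 members (4.55%), RPL16A and RPL23AA, against 7.68% of all.

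Positions of the elements differed. Of 88 site II matches in members, 71 were centred before the start, 60 of them within 100 bases. Of 25 telo box matches, 15 were centred after it, within the first 50 bases from the annotated start. The annotated start can differ from the deposited locus. For RPSAb the upstream stretch begins at base 1311130, while the deposited locus ends at 1310887. Holding site II did not sort the members by level, since those with it ran from 11.9 to 617 FPKM in wild type (median 216) and the 10 without it from 2.46 to 340.2 FPKM (median 235). RPL10B, at 11.9 FPKM, has 2 matches in the stretch shown, and P40, at 322, has none of site II there but a telo box.

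**Figure D4:**
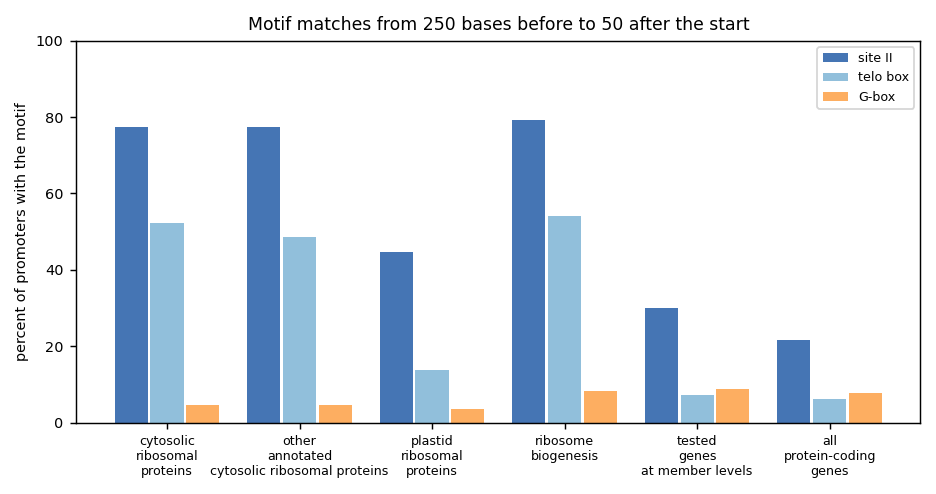
Percent of promoters with at least 1 match to site II, the telo box or the G-box, in 6 groups of genes, over 300 bases on both strands. Cytosolic ribosomal protein genes (77.3% and 52.3%) and ribosome biogenesis genes (79.2% and 54.2%) stand above plastid ribosomal protein genes (44.8% and 13.8%) and all protein-coding genes (21.7% and 6.22%) for site II and the telo box.

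A further 173 genes are described in the annotation as structural constituents of the ribosome and placed in the cytosolic ribosome, and 163 were tested. The same wording finds only 31 of the 44 members, so the list is not the whole remainder of the ribosome. Of the 163 genes, 3 rose, 1 fell and 159 were not called, which is 2.45% called against 17.2% of all tested genes. Their median ratio was 0.05, as was that of all tested genes. RPL3B (AT1G61580), a second L3 gene, fell, with 11.7 FPKM in the mutant and 25.7 in wild type (-1.08). It supplied 4.06% of its sum with RP1 in the mutant and 7.89% in wild type. AT2G40205, of the L41 family, rose, with 1562 FPKM in the mutant and 832 in wild type (0.91). The L41 genes AT3G08520 (-0.19), AT3G11120 (-0.15) and AT3G56020 (0.24) were not called. AT4G25890, of the acidic stalk proteins, rose by less (0.39), and so did AT4G35490 (0.41), whose product the annotation names as mitochondrial L11. By that name the list is not purely cytosolic, and AT4G35490 is counted among the 3 that rose and in the 2.45% called. Site II was found in 77.5% of these 173 genes and the telo box in 48.6%, close to the members' shares.

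Plastid ribosomal proteins are encoded in the nucleus but serve the ribosome of the chloroplast. Their list, too, was chosen with earlier results of these data known. Of 29 listed genes, 10 fell, none rose and 19 were not called, so 34.5% were called lower against 8.54% of all tested genes. According to the authors' deposited table, an unadjusted p-value of at most 0.05 was reached by 23 of them (79.3%) and by 25.7% of all tested genes. All 29 had a ratio below 0, as did 9385 of the 22892 tested genes and 645 of the 1936 at the members' levels. These 29 genes had ratios from -0.77 to -0.18, with a median of -0.37 beside 0.05 over all tested genes. Their range did not overlap that of the cytosolic members, whose lowest ratio was -0.15. It did overlap that of the 163 other annotated cytosolic genes, which ran from -1.08 to 0.91, with 108 above 0 and 55 below. Their levels were alike, with a median of 213 FPKM against 220.0. RPL27 (AT5G40950) had 81.0 FPKM in the mutant and 139 in wild type, EMB3136 (AT5G13510, locus shared with another gene) 147 and 242, PRPL35 (AT2G24090) 219 and 337, and RPL12-A (AT3G27830) 243 and 368. Summed FPKM was 24.3% lower in the mutant for the plastid genes and 4.08% higher for the cytosolic members. The ratio of sums, phyA-1 over wild type, was 1.041 for the members and 1.029 for the 1936 tested genes at their levels. The members' rise is thus near that background. The difference between the lists was not tested, since values per library were not used.

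**Figure D5:**
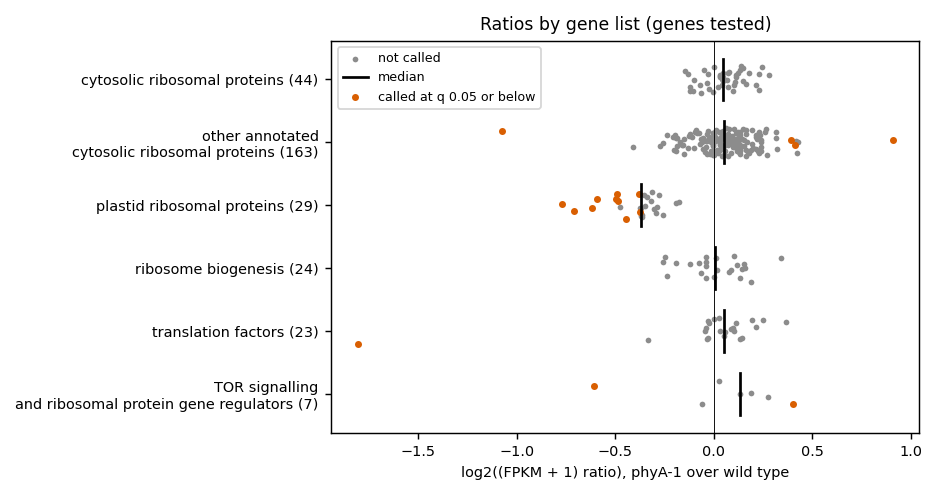
Log2((FPKM + 1) ratio of phyA-1 over wild type) of each tested gene in 6 lists, with the number tested in brackets, medians as black bars and called genes in orange. Cytosolic ribosomal protein genes centre on 0.05 with none called, and plastid ribosomal protein genes on -0.37 with 10 called.

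Genes that build ribosomes or work with them mostly lay near 0 as well. Of 24 ribosome biogenesis genes, among them nucleolin, fibrillarin and pescadillo genes, the authors' deposited table called 0, with 0 at an unadjusted p-value of 0.05 as well (median 0.01, range -0.26 to 0.34). Over all tested genes 17.2% were called, 25.7% reached that p-value and the median was 0.05. Of 23 translation factor genes, 1 fell and 22 were not called (4.35% called, median 0.05). The gene that fell, AT5G12110, encoding an elongation factor 1-beta, had 3.83 FPKM in the mutant and 15.9 in wild type, while its copy AT5G19510 had 354 and 305 FPKM and was not called.

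The 7 genes of TOR signalling and ribosomal protein gene regulation included both called directions, with 1 lower, 1 higher and 5 not called (28.6% called against 17.2% of all tested genes, median 0.13 against 0.05). So small a list cannot be set apart from that background. PK1 (AT3G08730, also S6K1), an S6 kinase gene, fell, with 45.0 FPKM in the mutant against 69.2 (-0.61). S6K2 (AT3G08720), the other S6 kinase gene, rose, with 19.7 FPKM against 14.6 (0.40). S6K2 supplied 30.4% of the sum of both in the mutant and 17.5% in wild type. Their coding sequences are 86.0% identical with at most 59 bases in a row without a difference, so single values are uncertain where reads fit both. TCP20, whose protein binds site II, was not called.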

How the data were processed

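Polyadenylated RNA of seedlings was sequenced in 6 libraries, 3 per genotype, which the labels describe as independent biological replicates. Per the submitters' processing notes, Bowtie and the build TAIR10 were used. The estimator of levels and the kind of test are, in the sources used here, not given. The table deposited by the authors has no header, and its columns were identified from order and values. It holds, as deposited by the authors, 1 pooled FPKM value per gene and genotype, a log2 ratio with wild type as numerator, the score of a test, and its p-value and q-value. Deposited log2 ratios lay within 0.001 of those computed from FPKM in 99.97% of cases. Depth per library is unknown, and no spread between replicates could be computed.

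Ratios were recomputed with a pseudocount of 1, in the order phyA-1 over wild type, which understates changes of low genes. Calls are the authors' q-values at 0.05. No set test was made: each list is given by counts and medians beside those of all tested genes. Members and lists were chosen with earlier results of these data known. Of the 44 members, each is named; of other lists, up to 4 called genes by size of ratio. RPL16B, AT5G45775, AT3G58700, AT5G35530, AT5G19510, the L41 genes not called and the copy pairs outside the members were chosen after values were seen. So was the comparison with genes at the members' levels. The list of other cytosolic ribosomal protein genes takes genes whose TAIR10.1 annotation note names both a structural constituent of the ribosome and the cytosolic ribosome; 31 of the 44 members meet that rule. Sequences and starts are from RefSeq TAIR10.1, read with its own annotation. Coding sequences of copies were aligned globally with Biopython 1.88, in place of protein sequences, which were not used here. The longest coding sequence of each gene was used, and percent identity counts gaps as differences. Adjustment and motif search were tested on simulated data.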

Additional observations from a re-analysis of the deposited data

How the results depend on the processing

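No paired analysis was possible because the table pools the libraries of each genotype; leaving out a replicate was not run for the same reason. The count of 0 called members stayed at 0 with q-values of 0.01 and 0.1, with Benjamini-Hochberg adjustment over all tested p-values, with unshared loci, and with a mean of at least 5 FPKM. Of 68 alternatives, 53 moved counts by no more than 1.5 times, medians by under 0.05 and motif shares within their exact 95% binomial interval. Relative to genes with at least 5 FPKM, the median became -0.0261 for the members (20 of 44 above 0), -0.0192 for the other cytosolic genes, -0.44 for the plastid list, -0.0666 for ribosome biogenesis, -0.0201 for translation factors and 0.0611 for the TOR list. With a q-value of 0.01, 11.5% of all tested genes were called. Called genes then numbered 6 of 29 in the plastid list, 1 of 7 in the TOR list and 2 of 163 other cytosolic genes. With 0.1 they numbered 19 of 29 in the plastid list and 3 of 23 translation factors, beside 21.9% of all tested genes. Searching the forward strand only, site II was in 59.1% of members (14.3% of all genes) and the telo box in 25% (3.68%). Before the start only, the telo box was in 13.6% (4.49%). The cause was not tested beyond the smaller search that these settings make. Between 67.9 and 333.8 FPKM, the 10th to 90th percentile of the members, no difference under about 0.36 on the log2 scale was called. Of 252 genes there with 0.3 to 0.4, 48 were called.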
